A study of Mus musculus with 8 samples.

Results

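Lactoferrin, the product of Ltf, is stored in the specific granules of neutrophils, and its expression was followed together with that of 8 other genes whose proteins these granules hold. The 9 genes were Ltf, Ngp, Camp, Lcn2, Mmp8, Chil3, Cd177, Itgb2l and Lyz2, taken by symbol from the 52550 genes listed for every library, and all 9 were found once and passed the filter on low values. RNA came from bone marrow pre-pro-B and pro-B cells of untreated C57BL/6J mice, wild type (WT) or with a lactoferrin knockout (Lf-/-), sorted by flow cytometry. Of the libraries used, 7 in all, 3 were WT (2 pre-pro-B and 1 pro-B) and 4 were Lf-/- (2 of each stage), and replicate 2 of WT pro-B was not analysed here. The age of the mice and the part of Ltf that was deleted are not given in the sources used here. The labels do not say whether a library came from 1 mouse or a pool, so p-values measure only the spread between these libraries.

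Neutrophils fill their granules in order as they mature. Azurophil granules with myeloperoxidase and serine proteases form first, specific granules with lactoferrin and other antimicrobial proteins form at the myelocyte stage, and gelatinase granules follow. C/EBPε is the transcription factor best known for driving specific granule genes, and bone marrow is rich in the cells that make them. B cell progenitors are not known as a source of these granules.

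Values were read as FPKM, a unit the sources used here do not state, that is, sequenced fragments scaled by transcript length and by library total, so levels can be compared between genes per length, and a gene that takes a large share of a library lowers the values of all others. Differences are between means of log2(FPKM + 1), which understates the change of low genes, and were tested with limma (two-sided, Benjamini-Hochberg adjustment over all genes tested). The step between low values gave about 11000000 to 16000000 fragments in 6 libraries. Lf-/- pre-pro-B replicate 2 had too few low values to read a step. It had 12172 genes above 0, against 19477 to 20250 in the others, and correlated with the others at r = 0.814 to 0.838, against 0.917 to 0.963 among the rest. Genotype differences of the 9 genes that rest on that library are also given without it. Differences within pro-B cells do not rest on it, but their tests drew their spread in part from it, so their p-values depend on it.

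All libraries carried neutrophil transcripts in excess of B lineage transcripts, against the labelled cell types. A list of 12 late neutrophil genes took 22.5% to 32.3% of the summed FPKM in WT and 15.1% to 24.9% in Lf-/- libraries. Most of that share was S100a8 and S100a9, so it does not describe the list as a group. Over both stages these genes were at -0.49 and -0.45, while 9 of the 12 were above 0 (median 0.14). A list of 12 B lineage genes took 0.0227% to 0.0633% in WT and 0.191% to 0.335% in Lf-/- libraries, with Rag1 at 0 in the WT pro-B library and Rag2 at 0 in Lf-/- pre-pro-B replicate 2. Ighm, the heavy chain of IgM and not in that list, overlapped between genotypes over both stages and within pre-pro-B cells. It was higher in both Lf-/- pro-B libraries than in the WT pro-B library, as were 75.3% of all genes tested. It was at 4830 and 746 FPKM in WT pre-pro-B, 1780 and 1574 FPKM in Lf-/- pre-pro-B, 385 FPKM in WT pro-B, and 960.5 and 724 FPKM in Lf-/- pro-B libraries. The 8 azurophil granule genes took 2.57% to 3.34% in WT and 0.629% to 2.07% in Lf-/- libraries. Markers of monocytes took at most 0.0101%, eosinophils 0.432%, basophils and mast cells 0.123%, erythroid cells 0.0152% and megakaryocytes 0.0121%. In such bulk RNA, fewer cells of a type and less RNA per cell cannot be told apart, and the part of these cell types in the results that follow was not tested.

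Ltf, Ngp and Camp lie on the distal part of chromosome 9 (GRCm38). Ltf is at chr9:111019271-111042767 on the plus strand, with Ngp 599.5 kb before it at chr9:110419747-110423012 (plus strand) and Camp 1171.9 kb before it at chr9:109847379-109849617 (minus strand). Mmp8 is on the same chromosome, far away, at chr9:7558456-7568485. The remaining genes are at chr2:32384633-32388252 (Lcn2), chr3:106147554-106167564 (Chil3), chr7:24743983-24760311 (Cd177), chr16:96422288-96443619 (Itgb2l) and chr10:117277331-117282321 (Lyz2). All 9 are protein coding, and the longest transcript has between 4 exons (Ngp, Camp and Lyz2) and 17 exons (Ltf and Cd177).

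The bases before the start are shown for Ltf, the targeted gene, for Ngp, the most abundant of the genes and a neighbour of Ltf, and for Chil3, which was lower in every Lf-/- library than in every WT library. They come from the RefSeq promoter table (GRCm38.p6), in which all 9 genes were found, are written 5′ to 3′ on the strand of the gene, begin 250 bases before the RefSeq start and stop before the annotated gene. Capitals mark matches to the core of C/EBP sites, TTNNGNAA or its reverse complement TTNCNNAA. The Ltf window is chr9:111019042-111019270 (plus strand), the Ngp window chr9:110419558-110419746 (plus strand) and the Chil3 window chr3:106167565-106167814 (minus strand).
Ltf: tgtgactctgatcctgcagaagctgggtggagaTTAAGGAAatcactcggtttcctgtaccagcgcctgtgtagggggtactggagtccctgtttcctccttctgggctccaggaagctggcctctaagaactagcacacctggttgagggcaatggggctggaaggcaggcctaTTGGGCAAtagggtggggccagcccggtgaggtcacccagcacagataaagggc
Ngp: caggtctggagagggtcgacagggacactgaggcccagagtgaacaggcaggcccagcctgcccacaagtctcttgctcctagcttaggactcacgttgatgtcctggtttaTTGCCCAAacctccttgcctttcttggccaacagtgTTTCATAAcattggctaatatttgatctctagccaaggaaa
Chil3: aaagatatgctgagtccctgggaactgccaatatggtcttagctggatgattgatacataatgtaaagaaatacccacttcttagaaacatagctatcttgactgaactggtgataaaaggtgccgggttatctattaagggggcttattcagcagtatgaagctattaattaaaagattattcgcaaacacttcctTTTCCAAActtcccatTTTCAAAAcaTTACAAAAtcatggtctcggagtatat

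In the full 250 bases, the C/EBP core matched at least once in 8 of the 9 genes, with 3 matches in Ngp and Chil3, 2 in Ltf and Mmp8, and none in Camp. Such a short pattern is common, and 36.8% of all 32851 promoters of that length held it. The pattern GAGGAA or TTCCTC, an ETS site of the type to which PU.1 binds, matched in 5 of 9 genes, Ltf among them, against 23.3% of all promoters. These matches describe letters and not bound sites.

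Ltf, the iron-binding protein of specific granules, was at 2143 and 2731 FPKM in WT pre-pro-B libraries and at 88.2 and 149 FPKM in Lf-/- pre-pro-B libraries. The WT pro-B library held 2650 FPKM, and the Lf-/- pro-B libraries held 168 and 96.0 FPKM. No Lf-/- value came near any WT value, and the transcript remained detectable in all Lf-/- libraries. The Lf-/- mean was 4.86% of the WT mean in the earlier and 4.98% in the later stage, a 20.6-fold and 20.1-fold lower level. Reads from an undeleted part of the gene and reads from a whole transcript cannot be told apart in a value per gene.

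Over both stages, Ltf differed between Lf-/- and WT by -4.38 on the log2 scale (SE 0.33, 95% interval -5.13 to -3.64, limma adjusted p = 0.00206) and had the smallest p of all 10793 genes. It was the only member among the 20 genes called (0.185% of those tested). Without Lf-/- pre-pro-B replicate 2 it was at -4.57 (limma adjusted p = 3.61e-04), with 123 genes called. The limma adjusted p was between 9.21e-05 and 0.127 over the alternatives tried. It was above the threshold without a filter on low values (0.0625) and without the lone WT pro-B library (0.127). In both cases limma called 0 genes (1154 and 529 at an unadjusted p under 0.05). Without the WT pro-B library, the fit compared genotypes in pre-pro-B cells only. Within pre-pro-B cells the difference was -4.39 (SE 0.47, unadjusted p = 1.16e-04, limma adjusted p = 0.429). It was -4.76 without Lf-/- pre-pro-B replicate 2, and between -4.56 and -4.01 without any 1 of the other 3 libraries. Each of these fits left a group with 1 library, so only the difference is given. Within pro-B cells it was -4.37 (SE 0.56, unadjusted p = 1.05e-04, limma adjusted p = 0.379), where the single WT library was assumed to vary like the others. No gene was called within a stage by limma (0% of 9720 and of 10793), and 284 (2.92%) and 467 (4.33%) had an unadjusted p under 0.05. The difference between stages in the effect on Ltf was 0.016 (95% interval -1.70 to 1.73, limma adjusted p = 0.999).

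**Figure D1:**
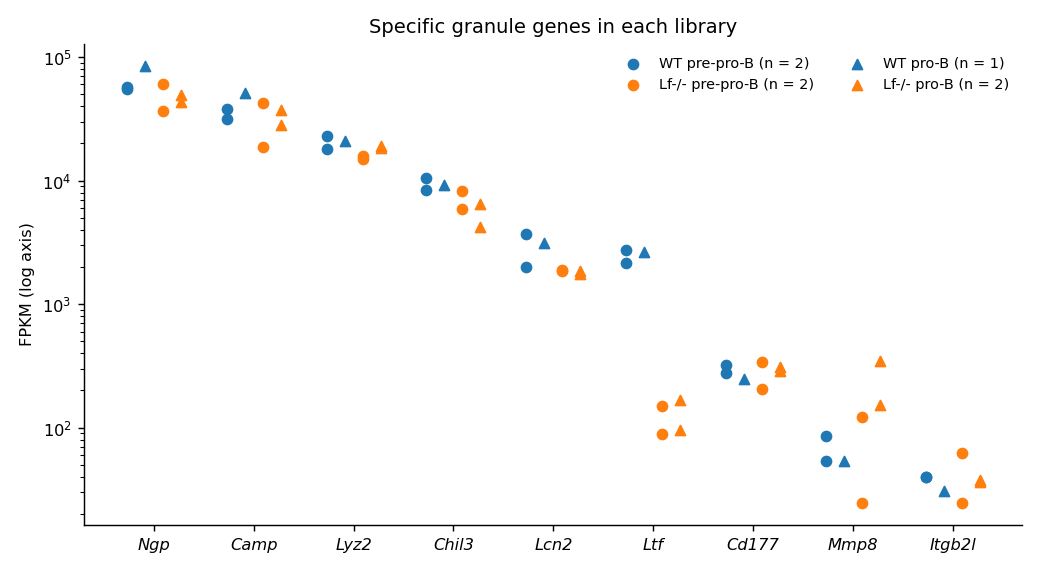
FPKM of each gene (log axis) in each of the 7 libraries, with circles for pre-pro-B and triangles for pro-B cells, blue for WT and orange for Lf-/-. The Ltf values of Lf-/- libraries, 88.2 to 168 FPKM, sit apart from the WT values of 2143 to 2731 FPKM, while 6 of the other 8 genes overlap between genotypes.

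The ratio of Ltf to its companions within a library is not changed by multiplying all values of that library by a common factor. Ltf came to 1.76% and 2.17% of the summed FPKM of the other 8 genes in WT pre-pro-B libraries and to 1.57% in the WT pro-B library. In Lf-/- libraries it came to 0.0704% and 0.183% in pre-pro-B and to 0.173% and 0.0843% in pro-B cells. Even the highest Lf-/- ratio was well below the lowest WT ratio. Against Lcn2 alone, a gene of like abundance in WT cells, the ratio was 1.07, 0.744 and 0.841 in the 3 WT libraries and between 0.0468 and 0.0965 in the 4 Lf-/- libraries.

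Among the other antimicrobial proteins, the cathelicidin family members Ngp and Camp were the most abundant. Ngp, the neutrophilic granule protein, was at 54871 and 57382 FPKM in WT pre-pro-B, 60190 and 36468 FPKM in Lf-/- pre-pro-B, 84746 FPKM in WT pro-B, and 43393 and 48985 FPKM in Lf-/- pro-B libraries. It ranked 3 or 4 by FPKM among all genes in every library, and its Lf-/- values overlapped the WT values. The difference over both stages was -0.51 (SE 0.32, 95% interval -1.23 to 0.22, limma adjusted p = 0.69).

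Camp, the precursor of the antimicrobial peptide CRAMP, was at 38007 and 31233 FPKM in WT pre-pro-B, 42218 and 18544 FPKM in Lf-/- pre-pro-B, 51003 FPKM in WT pro-B, and 28074 and 37502 FPKM in Lf-/- pro-B libraries. For both genes, Lf-/- pre-pro-B replicate 2 was the lowest library and WT pro-B the highest. The difference of Camp over both stages was -0.44 (SE 0.36, 95% interval -1.26 to 0.38, limma adjusted p = 0.710). Without Lf-/- pre-pro-B replicate 2, the difference within pre-pro-B cells turned from -0.30 to 0.29 for Camp and from -0.26 to 0.10 for Ngp.

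Lcn2, or neutrophil gelatinase-associated lipocalin, binds bacterial siderophores and so withholds iron from bacteria. It was at 2003 and 3672 FPKM in WT pre-pro-B, 1885 and 1850 FPKM in Lf-/- pre-pro-B, 3150 FPKM in WT pro-B, and 1741 and 1856 FPKM in Lf-/- pro-B libraries. All 4 Lf-/- values lay below all 3 WT values, the nearest pair being 1885 and 2003 FPKM. The difference over both stages was -0.65 (SE 0.30, 95% interval -1.34 to 0.042, unadjusted p = 0.0627, limma adjusted p = 0.689), so it did not pass the test.

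Lyz2 encodes lysozyme, which cleaves bacterial cell walls and is found in azurophil as well as specific granules and in macrophages. It was at 17893 and 22860 FPKM in WT pre-pro-B, 14802 and 15903 FPKM in Lf-/- pre-pro-B, 20750 FPKM in WT pro-B, and 19080 and 18498 FPKM in Lf-/- pro-B libraries. The groups were separate in pre-pro-B cells but overlapped over both stages, and no member varied less across libraries (1.54-fold from lowest to highest). The difference over both stages was -0.30 (SE 0.27, 95% interval -0.92 to 0.33, limma adjusted p = 0.729). Its near copy Lyz1 stood at 0.573% to 0.814% of the Lyz2 value, and how reads shared by the copies were split is not given in the sources used here.

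Chil3, the chitinase-like protein Ym1, was at 8391 and 10500.0 FPKM in WT pre-pro-B, 5936 and 8178 FPKM in Lf-/- pre-pro-B, 9137 FPKM in WT pro-B, and 4170 and 6496 FPKM in Lf-/- pro-B libraries. All Lf-/- values lay below all WT values, with 8178 and 8391 FPKM nearly touching. The difference over both stages was -0.58 (SE 0.31, 95% interval -1.28 to 0.12, unadjusted p = 0.0919, limma adjusted p = 0.689). Chil4, its near copy, stood at 0.200% to 0.299% of the Chil3 value. Across the 7 libraries Chil3 followed the mean of the azurophil granule genes (r = 0.933 on the log2 scale), although the points share library and genotype.

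Ltf, Lcn2 and Chil3 were thus the 3 members lower in every Lf-/- than in every WT library, against 1.13% of all genes tested in that direction and 9.87% in the other. Within pre-pro-B cells the members without overlap were Ltf, Lcn2, Chil3 and Lyz2, all lower in Lf-/- (17.7% of all genes lower, 15.5% higher). Within pro-B cells 6 members were lower than the single WT library in both Lf-/- libraries (6.9% of all genes), and Mmp8, Cd177 and Itgb2l were higher (75.3% of all genes).

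Mmp8 is neutrophil collagenase, a protease of specific granules. It was at 53.7 and 85.1 FPKM in WT pre-pro-B, 24.6 and 121 FPKM in Lf-/- pre-pro-B, 53.5 FPKM in WT pro-B, and 344 and 154 FPKM in Lf-/- pro-B libraries. Both Lf-/- pro-B libraries were the highest of the 7, and the Lf-/- pre-pro-B libraries lay on either side of the WT values. The difference was 2.08 within pro-B cells (SE 0.95, 95% interval -0.15 to 4.32, limma adjusted p = 0.822) and -0.30 within pre-pro-B cells (SE 0.80, limma adjusted p = 0.960). The latter went to -1.43 without Lf-/- pre-pro-B replicate 2 and to 0.83 without Lf-/- pre-pro-B replicate 1, so its sign rested on single libraries. The difference between these effects was 2.38 (SE 1.22, 95% interval -0.50 to 5.27, unadjusted p = 0.0920, limma adjusted p = 0.990), and 3.51 without Lf-/- pre-pro-B replicate 2 (limma adjusted p = 0.304) and 1.25 without replicate 1 (0.376).

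Mmp8 varied 14.0-fold from the lowest to the highest library, more than any member but Ltf (31.0-fold). Its level followed the mean of the late neutrophil genes over the 7 libraries (r = 0.955), a description over points that share library and genotype. Retnlg, a resistin-like gene of late neutrophils, was at 1070 and 2680 FPKM in WT pre-pro-B, 669 and 1403 FPKM in Lf-/- pre-pro-B, 2269 FPKM in WT pro-B, and 10205 and 3914 FPKM in Lf-/- pro-B libraries. As with Mmp8, the 2 Lf-/- pro-B libraries were the highest and Lf-/- pre-pro-B replicate 1 the lowest. The part of the late neutrophil genes in the Mmp8 values was not tested.

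**Figure D2:**
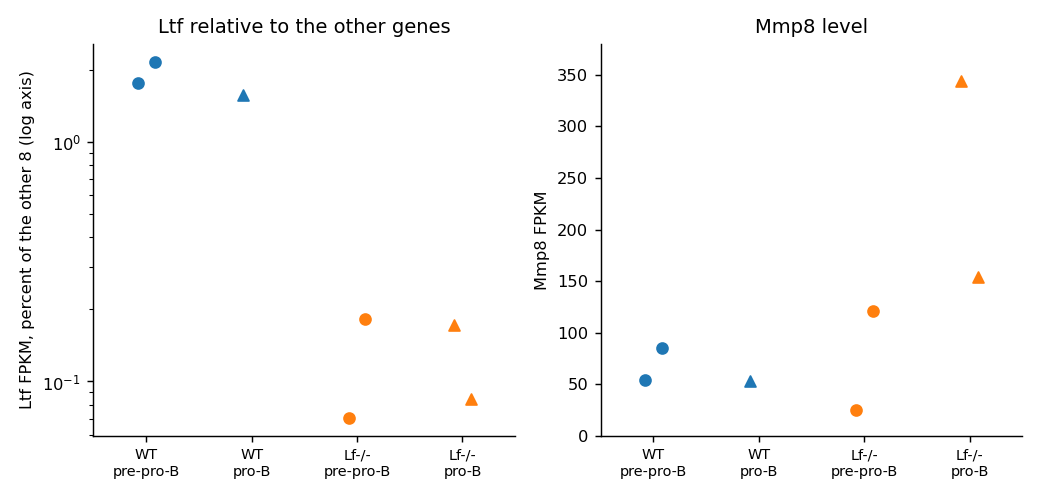
Left, Ltf FPKM as a percent of the summed FPKM of the other 8 genes (log axis) and right, Mmp8 FPKM (linear axis from 0), 1 point per library. The Ltf ratio is 1.57% to 2.17% in WT and 0.0704% to 0.183% in Lf-/- libraries, whereas Mmp8 is highest in the Lf-/- pro-B libraries at 154 and 344 FPKM.

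The surface proteins of the group overlapped between genotypes over both stages. Cd177, a membrane protein of neutrophil specific granules and of the cell surface, was at 277 and 322 FPKM in WT pre-pro-B, 205 and 338 FPKM in Lf-/- pre-pro-B, 248 FPKM in WT pro-B, and 289 and 311 FPKM in Lf-/- pro-B libraries. The highest and the lowest values were both of Lf-/- pre-pro-B libraries, and the difference over both stages was -0.0015 (SE 0.30, 95% interval -0.67 to 0.67, limma adjusted p = 0.998).

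Itgb2l encodes an integrin beta-like protein related to Itgb2, the beta chain of leukocyte integrins. It was the lowest member by mean, at 40.1 and 39.6 FPKM in WT pre-pro-B, 24.7 and 62.1 FPKM in Lf-/- pre-pro-B, 30.8 FPKM in WT pro-B, and 37.8 and 36.1 FPKM in Lf-/- pro-B libraries. The Lf-/- pre-pro-B libraries again held both extremes. The difference over both stages was 0.091 (SE 0.35, 95% interval -0.71 to 0.90, limma adjusted p = 0.927), and it was -0.26 with median-ratio scaling.

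**Figure D3:**
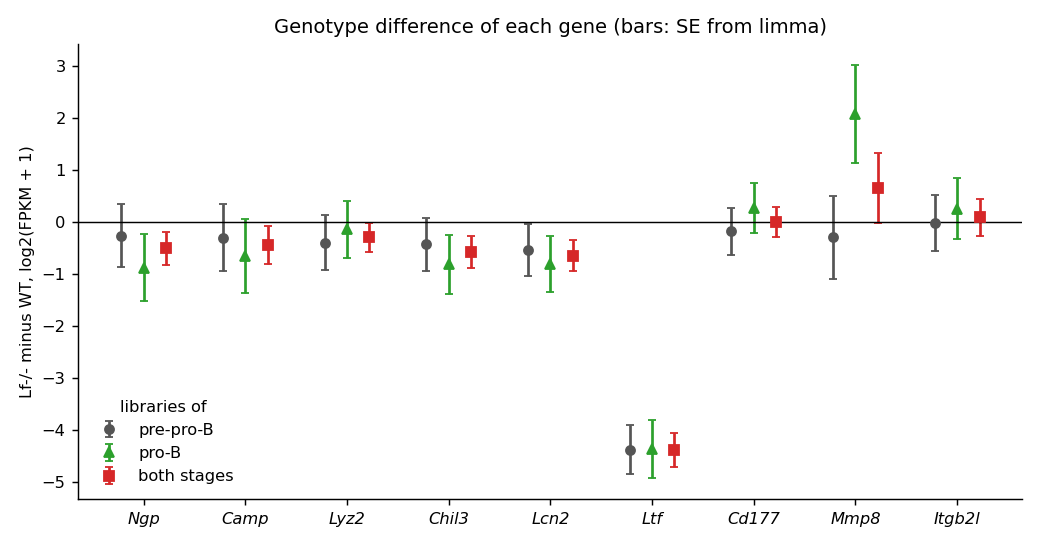
Lf-/- minus WT on the log2(FPKM + 1) scale for each gene, with bars of 1 SE, for pre-pro-B (grey circles), pro-B (green triangles) and both stages (red squares). Ltf lies at -4.39, -4.37 and -4.38, and the other genes lie between -0.88 and 0.66 except for Mmp8 in pro-B cells at 2.08.

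Over both stages 7 of 9 members were below 0, against 33.2% of all genes, and the median was -0.44 for the members and 0.21 for all genes. Ltf, the targeted gene, is included in this count and in the member counts that follow. All 9 members were below 0 in pre-pro-B cells (48% of all genes, medians -0.30 and 0.035). That count fell to 7 of 9 without Lf-/- pre-pro-B replicate 2 (medians -0.54 and -0.10) and to 6 of 9 without Lf-/- pre-pro-B replicate 1 (medians -0.35 and 0.23). Without replicate 2, the differences in pre-pro-B cells were -0.52 for Lcn2, -0.66 for Chil3, -0.45 for Lyz2, -0.54 for Cd177 and -0.67 for Itgb2l. In pro-B cells 6 of 9 members were below 0 (13% of all genes, medians -0.65 and 0.48). Without Lf-/- pre-pro-B replicate 2, the differences over both stages were -0.39 for Ngp, -0.18 for Camp, -0.67 for Lcn2, -0.74 for Chil3, -0.30 for Lyz2, -0.14 for Cd177, 0.33 for Mmp8 and -0.21 for Itgb2l. None of these 8 then passed the test, and Itgb2l changed sign. With median-ratio scaling the median of all genes in pro-B cells went from 0.48 to 0.014, and Cd177 and Itgb2l then fell below 0 there (-0.38 and -0.37).

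The share of a library that the 9 genes took was, as a percent of summed FPKM, 15.5% and 16.6% for WT pre-pro-B, 15.03% and 11.7% for Lf-/- pre-pro-B, 20.6% for WT pro-B, and 13.2% and 15.6% for Lf-/- pro-B libraries. The mean was 17.6% ± 2.67 (SD, n = 3) in WT and 13.9% ± 1.74 (SD, n = 4) in Lf-/-, and the ranges overlapped, since Lf-/- pro-B replicate 2 lay just above WT pre-pro-B replicate 1. Ngp alone took 5.25% to 10.2% and Camp 2.67% to 6.11%. Ltf took 0.268% to 0.352% in WT and 0.0106% to 0.0228% in Lf-/- libraries.

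**Figure D4:**
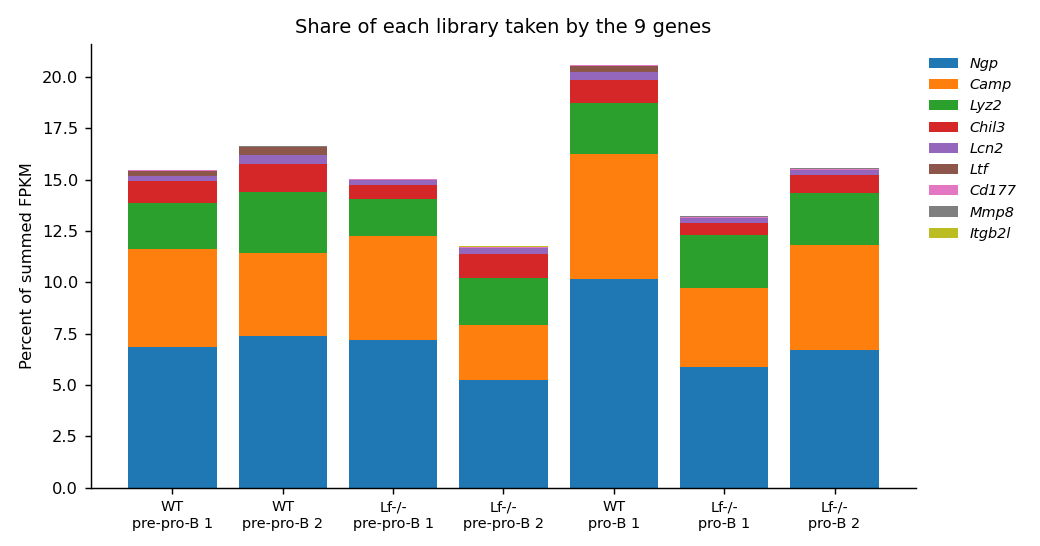
Stacked bars of the percent of the summed FPKM that each of the 9 genes took in each library, from 0. The WT pro-B library reaches 20.6% and Lf-/- pre-pro-B replicate 2 the lowest total of 11.7%, and Ngp and Camp make up most of every bar.

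The order of the 4 most abundant members was the same in all 7 libraries, Ngp over Camp over Lyz2 over Chil3. Below them Ltf and Lcn2 exchanged places between WT libraries (2143 against 2003 FPKM in WT pre-pro-B replicate 1, 2731 against 3672 FPKM in replicate 2), so their order did not hold beyond the spread. In Lf-/- libraries Ltf stood below Cd177 in all 4, and in both pro-B libraries also below Mmp8. Ltf ranked 28 to 39 among all genes in WT libraries and 318 to 622 in Lf-/- libraries.

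Stage was compared with genotype as a covariate. No member passed the test between pro-B and pre-pro-B cells with limma, adjusted or unadjusted (adjusted calls 0.00927% and unadjusted 2.41% of all genes). Mmp8 differed most, by 1.10 (SE 0.67, 95% interval -0.43 to 2.62, limma adjusted p = 0.947), higher in pro-B cells, and the other members lay between -0.27 (Chil3) and 0.35 (Camp). Ltf differed by 0.14 between stages (95% interval -0.60 to 0.88). None of the 9 genes passed the test of genotype by stage, for which 0% of all genes were called and 2.74% had an unadjusted p under 0.05.

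Members varied together in part. Over the 7 libraries, on the log2 scale and as a description, Ngp and Camp correlated at r = 0.898 and Cd177 and Itgb2l at 0.861, whereas Camp and Itgb2l had r = -0.865. Ltf had r = 0.800 with Lcn2, 0.723 with Chil3 and 0.708 with Lyz2, and -0.265 with Mmp8. The points share libraries and the scaling to a library total, and for Ltf they fall into 2 clusters by genotype.

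Among 3226 genes with a mean of at least 10 FPKM, the genes most like Ltf over the 7 libraries were Rpl29 (r = 0.949), Plac8 (0.925), Gm13394 (0.886), Gm2606 (0.870) and Gm15487 (0.842). Rpl29, a gene of the large ribosomal subunit, is on the same chromosome at chr9:106429454-106431568. Its values were 74.7, 135 and 56.8 FPKM for WT against 8.72, 17.3, 11.0 and 15.6 FPKM for Lf-/- libraries (-2.57). Rpl29 was picked for its likeness to Ltf over these same libraries, so no p is given for its genotype difference. The genes most like the mean of the other 8 members were Gm12854 (0.920), Stmn1 (0.893), Tyrobp (0.877), Emp3 (0.872) and Ifitm2 (0.854), of which Tyrobp encodes the adaptor DAP12 of myeloid cells. Of the genes tested near Ltf, 2 of 13 within 1 Mb on either side (15.4%), 4 of 22 within 2 Mb (18.2%) and 6 of 88 within 5 Mb (6.82%) had an unadjusted p under 0.05, against 7.17% of all genes.

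Other genes of the granule program were set beside these members over both stages. Of the list of other specific and gelatinase granule proteins, Ptx3 was below the filter and Itgam is listed under 2 identifiers, and 6 of the 16 entries tested were below 0 (median 0.078). None was called, and only Pglyrp1, a peptidoglycan recognition protein, had an unadjusted p under 0.05 (-0.69, SE 0.28, limma adjusted p = 0.657). Olfm4 (0.091), Hp (-0.22), Mmp9 (0.48), Cybb (0.18) and Itgb2 (0.23), genes of the granule matrix or membrane, did not pass the test, nor did Itgam (0.11 and 0.21), Stom (-0.53) or Cyba (-0.41).

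Of 8 azurophil granule genes, 7 were below 0 (median -0.89), and 4 had an unadjusted p under 0.05 and none was called (0.695% of all genes were lower and 6.48% higher at that unadjusted p). These were Elane, neutrophil elastase (-1.46, SE 0.51, limma adjusted p = 0.581), Mpo, myeloperoxidase (-1.19, SE 0.41, limma adjusted p = 0.560), and the serine proteases Prtn3 (-1.19) and Ctsg (-0.99). Elane stood between 13713 and 18996 FPKM for WT libraries and at 10371, 4272, 2673 and 10234 FPKM for Lf-/- libraries, without overlap. Of 7 granulocyte transcription factors none passed. Cebpe, which encodes C/EBPε, was at -0.21 (SE 0.34), Gfi1 at 0.34 and Spi1, which encodes PU.1, at 0.14. Cebpa was at -0.97 (SE 0.45, limma adjusted p = 0.689). Its levels were low, at 2.78 to 3.92 FPKM in WT and 0 to 2.31 FPKM in Lf-/- libraries. The 0 was in Lf-/- pre-pro-B replicate 2.

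Of 12 late neutrophil genes 3 were below 0 (median 0.14) and none passed. S100a8 (-0.49) and S100a9 (-0.45), the calprotectin subunits, lay near Ngp (-0.51) and Camp (-0.44), while Ly6g (0.074) and Retnlg (0.11) did not. Of the 12 B lineage genes 11 were tested, all were above 0 (median 1.87), and Cd79a (2.79, SE 0.34, limma adjusted p = 0.0273) and Cd79b (2.82) were among those called. Cd79a, a chain of the B cell receptor, measured 261, 203 and 86.1 FPKM for WT against 1518, 993, 1105 and 731 FPKM for Lf-/- libraries. The part of these transcripts in the values of the granule genes was not tested.

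**Figure D5:**
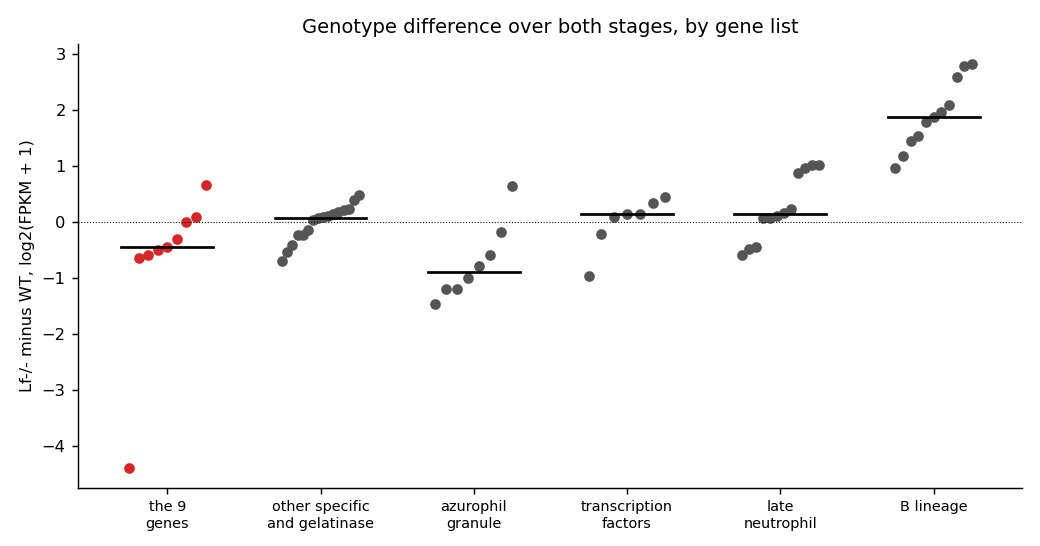
Lf-/- minus WT over both stages on the log2(FPKM + 1) scale, 1 point per gene tested, by gene list, with a line at the median of each list. The 9 genes (red) have a median of -0.44, with Ltf at -4.38, while the azurophil granule list lies at -0.89, the late neutrophil list at 0.14 and the B lineage list at 1.87.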

How the data were processed

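RNA was sequenced on a NovaSeq instrument. The authors deposited 1 normalized value per gene and library, read here as FPKM because values were not whole numbers, differed in sum between libraries (694578 to 834693) and fell on even steps when multiplied by transcript length in 6 libraries. Per the labels, GRCm38, TopHat, Cufflinks, HTSeq and DESeq were used, with no version or role, and FPKM is not stated. Of 52550 identifiers, 52403 matched GENCODE M21.

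Genes reaching 1 FPKM in no fewer than 2 libraries of a fit were analysed on log2(FPKM + 1) with limma 3.58.1 (R 4.3.3, mean-variance trend). Pre-pro-B libraries were fitted alone. The pro-B and interaction contrasts used 4 group means, and the remaining fits had stage or genotype as covariate. A call is an adjusted p under 0.05. The fits were run on simulated data in which each library varied independently around a common mean per gene, apart from genes set to differ. Such data hold no odd library and no shift of all genes, so nothing about the calls here is drawn from them. Alternatives were other scalings, filters and pseudocount, a replicate block, no stage term, all libraries in 1 fit, and each library left out in turn.

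The members and gene lists were chosen with earlier results of these data known. Named were the 9 members, marked genes of each list plus at most 3 others with the largest genotype difference, and the 5 genes most like Ltf and 5 most like the other members. Counts behind single values were not recovered, so no counting interval is given. Python 3.11.15, numpy 2.4.6, pandas 2.3.3 and matplotlib 3.10.9 were used. The full sort gates are not reported here.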

Additional observations from a re-analysis of the deposited data

How the results depend on the processing

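Ltf was lower in Lf-/- under all 40 alternatives to the genotype comparisons (-5.25 to -3.97). Some of these could not change its difference, so the 40 are not separate checks. They were the filters, the replicate block and the joint fit in pre-pro-B cells, and pre-pro-B libraries left out in pro-B cells. Ltf lost its call over both stages without a filter and without the WT pro-B library. Without that library, the fit compared genotypes in pre-pro-B cells only. The number of genes called over both stages was 20, and 7 with median-ratio scaling, 10 with quantile normalization, 9 with the late neutrophil list as reference, 0 without a filter (members called 0), 63 with 1 FPKM in every library, 9 with a pseudocount of 0.1 and 6 without the stage term. Leaving out 1 library gave 0 to 123 (members 0 to 1): 0 without WT pro-B replicate 1, 3 without either Lf-/- pro-B library, 5 and 6 without WT pre-pro-B replicate 1 and 2, and 59 and 123 without Lf-/- pre-pro-B replicate 1 and 2. In pre-pro-B cells, leaving out 1 library gave 0 to 3338 genes (members 0 to 1), 3338 of them without Lf-/- pre-pro-B replicate 1, with 1 residual degree of freedom. In pro-B cells, 256 genes were called without a filter and 0 to 1 with a library left out. For genotype by stage, these were 122 and 0 to 561. For stage, 1 gene was called, 0 with quantile normalization, without a filter or with a pseudocount of 0.1, 5 with the late neutrophil reference, 6 with 1 FPKM in every library, and 0 to 36 with a library left out. Pro-B and interaction fits without WT pro-B replicate 1 were not possible. The cause of these changes was not tested.

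Same-numbered libraries did not deviate together between the stages of Lf-/- (r = -0.013) or between genotypes (r = 0.039 and 0.053), so the numbers were not taken as pairs. The WT stages could not be compared with a lone pro-B library, and the Lf-/- value includes pre-pro-B replicate 2. The check therefore cannot show whether both stages came from the same mice, and the fits over both stages treat the libraries as independent. With the replicate number as a block, 65 genes were called in pre-pro-B cells (members 1, Ltf), with 1 residual degree of freedom, and 22 over both stages. Ltf in the interaction was then at -0.034. For stage, the block was genotype and replicate number together, as if same-numbered libraries were pairs, and 8 genes were called.

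Members that changed sign did so without passing a test. With the late neutrophil reference, Itgb2l in pre-pro-B cells was at 0.15, and between stages Ltf was at -0.65, Ngp -0.56, Camp -0.43, Lcn2 -0.74, Cd177 -0.78 and Lyz2 -0.60. In pro-B cells Cd177 and Itgb2l were at -0.38 and -0.37 with median-ratio scaling, -0.095 and -0.28 with quantile normalization and -0.61 and -0.62 with the late neutrophil reference. Over both stages Itgb2l was at -0.26, -0.17 and -0.16 under these 3 scalings. In the interaction, median-ratio scaling gave Ltf -0.46, Cd177 -0.024, Itgb2l -0.18 and Lyz2 -0.22, quantile normalization gave Ltf -0.32, Ngp 0.38, Camp 0.068, Chil3 0.024, Cd177 -0.015 and Itgb2l -0.20, and the late neutrophil reference gave Ltf -1.03, Cd177 -0.60, Itgb2l -0.77 and Lyz2 -0.79.

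With 1 library left out, signs changed within these ranges. In pre-pro-B cells they were -0.89 to 0.29 for Camp, -0.54 to 0.18 for Cd177, -0.67 to 0.63 for Itgb2l, -1.43 to 0.83 for Mmp8 and -0.62 to 0.10 for Ngp. Over both stages they were -0.18 to 0.22 for Cd177, -0.21 to 0.44 for Itgb2l and -0.30 to 1.46 for Mmp8. The lower ends for Cd177 and Mmp8 came from leaving out the WT pro-B library. That fit compared genotypes in pre-pro-B cells only. Between stages they were -0.22 to 0.18 for Cd177, -0.55 to 0.099 for Itgb2l, -0.11 to 0.18 for Lcn2, -0.061 to 0.34 for Ltf and -0.023 to 0.47 for Ngp. In the interaction they were -0.95 to 0.24 for Camp, -0.37 to 0.92 for Itgb2l, -0.71 to 0.17 for Lcn2 and -0.38 to 0.42 for Ltf. Without Lyz2, the share of the members was 13.25% to 18.1% in WT and 9.46% to 13.26% in Lf-/- libraries (Lf-/- mean 11.6%). Ltf then came to 1.79% to 2.65% of the remaining members in WT (mean 2.17%) and 0.0799% to 0.227% in Lf-/- libraries.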
